A study of Homo sapiens with 6 samples.

Results

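Chromosomes 19 and 18 carried 3358 of the 44717 peaks in 4 lists of binding sites of SON and HMGB2 in IMR90 cells. The members are the lines of each list that lie on either chromosome, chosen by position alone and not by any measured value. The SON list of untreated cells held 1044 peaks on chromosome 19 and 451 on chromosome 18, of 22216 on chromosomes 1 to 22 and X. The SON list after 3 days of ICM held 681 and 208 of 11028, the SON list after 6 days of ICM 358 and 99 of 5481, and the HMGB2 list of untreated cells 461 and 56 of 5992.

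IMR90 is a line of fibroblasts from human lung, and all 4 lists come from this line. Peaks were mapped by ChIPmentation, in which a transposase cuts and tags antibody-bound chromatin on the beads. Cells for SON were fixed with formaldehyde, and cells for HMGB2 with the longer crosslinker EGS followed by formaldehyde, so target and fixation cannot be told apart. The labels do not expand the abbreviation ICM, and each treated group is named by its treatment and its days. The input for HMGB2 and a further HMGB2 sample, titled with the crosslinker DSG, were not analysed here. Peak positions give no expression, so the fibroblast label was not checked against marker genes. With 1 list per group no test between conditions was made, and differences between lists have no replicate check. Library depth is unknown. Intervals are 95% intervals of counting error alone, and since peaks lie in clusters they are too narrow for a difference between chromosomes. The spread over 23 chromosomes is therefore given by ranks.

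SON is a large scaffold protein of nuclear speckles, bodies in the nucleus that are rich in splicing factors. Gene-dense, highly transcribed chromosome segments tend to lie close to speckles, whereas gene-poor segments tend to lie at the nuclear lamina. HMGB2 is an abundant high mobility group protein that bends DNA with little sequence preference. Chromosomes 19 and 18 are the textbook pair for this arrangement: in the nuclei of lymphocytes chromosome 19 lies towards the nuclear interior and chromosome 18 towards the periphery. Chromosome 19 is rich in short genes, ribosomal protein genes and large clusters of KRAB zinc finger (ZNF) genes.

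Promoter sequences are shown first, since promoters and their content of the dinucleotide CG recur in the results. The 250 bases before an annotated start are shown for the gene at the strongest untreated SON peak of each chromosome (PDE4C and TXNL1), for the gene at the strongest promoter region met by all 4 lists (IRGQ and PHLPP1), and for a gene of each chromosome with no peak at its promoter in any list and the median CG count of such promoters (GP6 and HMSD). They are RefSeq sequence of GRCh38.p14, read in the direction of the gene. Capitals mark matches on either strand to 7 short motifs: GGGCGG (GC box), CCGGAAG (ETS family), CCAAT (NF-Y), GCATGCG (NRF1), AAGATGG (YY1), CACGTG (E-box) and AGGNGGC (part of the CTCF motif).
PDE4C, chr19:18224494-18224743, minus strand: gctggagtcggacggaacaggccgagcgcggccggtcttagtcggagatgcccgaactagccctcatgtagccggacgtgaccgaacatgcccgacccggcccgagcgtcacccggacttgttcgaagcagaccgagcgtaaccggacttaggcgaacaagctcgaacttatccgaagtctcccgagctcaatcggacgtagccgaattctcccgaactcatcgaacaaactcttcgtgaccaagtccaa
IRGQ, chr19:43596135-43596384, minus strand: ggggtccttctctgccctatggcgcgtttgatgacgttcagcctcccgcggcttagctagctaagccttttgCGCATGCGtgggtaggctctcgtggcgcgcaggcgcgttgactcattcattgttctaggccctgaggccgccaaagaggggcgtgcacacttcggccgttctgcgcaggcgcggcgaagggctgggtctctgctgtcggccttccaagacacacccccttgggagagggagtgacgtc
GP6, chr19:55038265-55038514, minus strand: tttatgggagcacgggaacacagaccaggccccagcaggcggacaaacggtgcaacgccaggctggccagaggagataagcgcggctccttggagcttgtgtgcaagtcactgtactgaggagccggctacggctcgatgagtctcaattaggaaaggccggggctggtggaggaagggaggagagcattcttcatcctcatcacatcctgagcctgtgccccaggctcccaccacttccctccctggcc
TXNL1, chr18:56638593-56638842, minus strand: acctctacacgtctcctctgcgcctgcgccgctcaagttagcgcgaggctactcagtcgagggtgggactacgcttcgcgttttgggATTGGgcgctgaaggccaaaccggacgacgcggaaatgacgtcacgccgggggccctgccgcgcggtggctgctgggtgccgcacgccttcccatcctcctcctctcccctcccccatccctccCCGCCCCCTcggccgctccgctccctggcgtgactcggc
PHLPP1, chr18:62715291-62715540, plus strand: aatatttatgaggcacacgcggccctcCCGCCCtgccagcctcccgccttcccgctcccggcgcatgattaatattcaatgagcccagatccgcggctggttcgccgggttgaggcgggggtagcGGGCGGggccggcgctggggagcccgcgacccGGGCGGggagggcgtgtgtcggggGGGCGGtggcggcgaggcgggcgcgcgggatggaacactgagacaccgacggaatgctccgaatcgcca
HMSD, chr18:63949051-63949300, plus strand: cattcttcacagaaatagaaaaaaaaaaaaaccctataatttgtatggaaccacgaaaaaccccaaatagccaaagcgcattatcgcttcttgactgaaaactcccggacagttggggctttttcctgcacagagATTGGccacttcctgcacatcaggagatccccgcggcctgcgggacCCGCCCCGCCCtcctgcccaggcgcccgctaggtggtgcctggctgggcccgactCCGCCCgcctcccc
The window of PDE4C, which encodes a cAMP phosphodiesterase, held 30 CG and no match to the 7 motifs. That of IRGQ held 22 CG, and its capitals are GCATGCG on both strands, overlapping each other. TXNL1, which encodes a thioredoxin-like protein, held 29 CG, 1 GGGCGG, 1 CCAAT and 1 AGGNGGC that overlaps the GC box. PHLPP1, the gene of a phosphatase that acts on AKT, held 33 CG and 4 GGGCGG. The windows without a peak held 10 CG at GP6, a platelet collagen receptor gene, and 14 at HMSD, which held 3 GGGCGG and 1 CCAAT.

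Gene density separated the chromosomes more than length did. Chromosome 19 had 1451 protein-coding genes over 58.6 Mb, 24.8 per Mb, and ranked 1 of 23. Chromosome 18 had 270 genes over 80.2 Mb, 3.36 per Mb, and ranked 22. Chromosome 18 is thus 1.37 times longer, so the chromosomes are not closely matched in length. Genes were also shorter on chromosome 19, with a median of 14.3 kb against 51.3 kb.

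Chromosome 19 had the highest peak density of the 23 chromosomes in all 4 lists. In untreated cells SON peaks numbered 17.8 per Mb on chromosome 19 and 5.62 on chromosome 18, a ratio of 3.17 (2.84 to 3.55). After 3 days of ICM the densities were 11.6 and 2.59 per Mb, and the ratio was 4.49 (3.83 to 5.26). After 6 days they were 6.11 and 1.23, and the ratio was 4.95 (3.95 to 6.25). HMGB2 peaks numbered 7.87 and 0.698 per Mb, a ratio of 11.3 (8.53 to 15.2). Chromosome 18 ranked 20, 20, 22 and 22 in the same order, below chromosome 17, the next in gene density after 19, and near chromosome 13, the lowest. Across the 23 chromosomes, which share library and genome, peaks and genes per Mb had a Spearman correlation of 0.911 for untreated SON, 0.919 and 0.884 for the 3-day and 6-day lists and 0.912 for HMGB2. The rise of the ratio over the SON lists was not kept when each list was reduced to its strongest 5481 peaks, the length of the shortest: the untreated list then gave 6.85, the 3-day list 7.17 and the 6-day list 4.95.

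**Figure D1:**
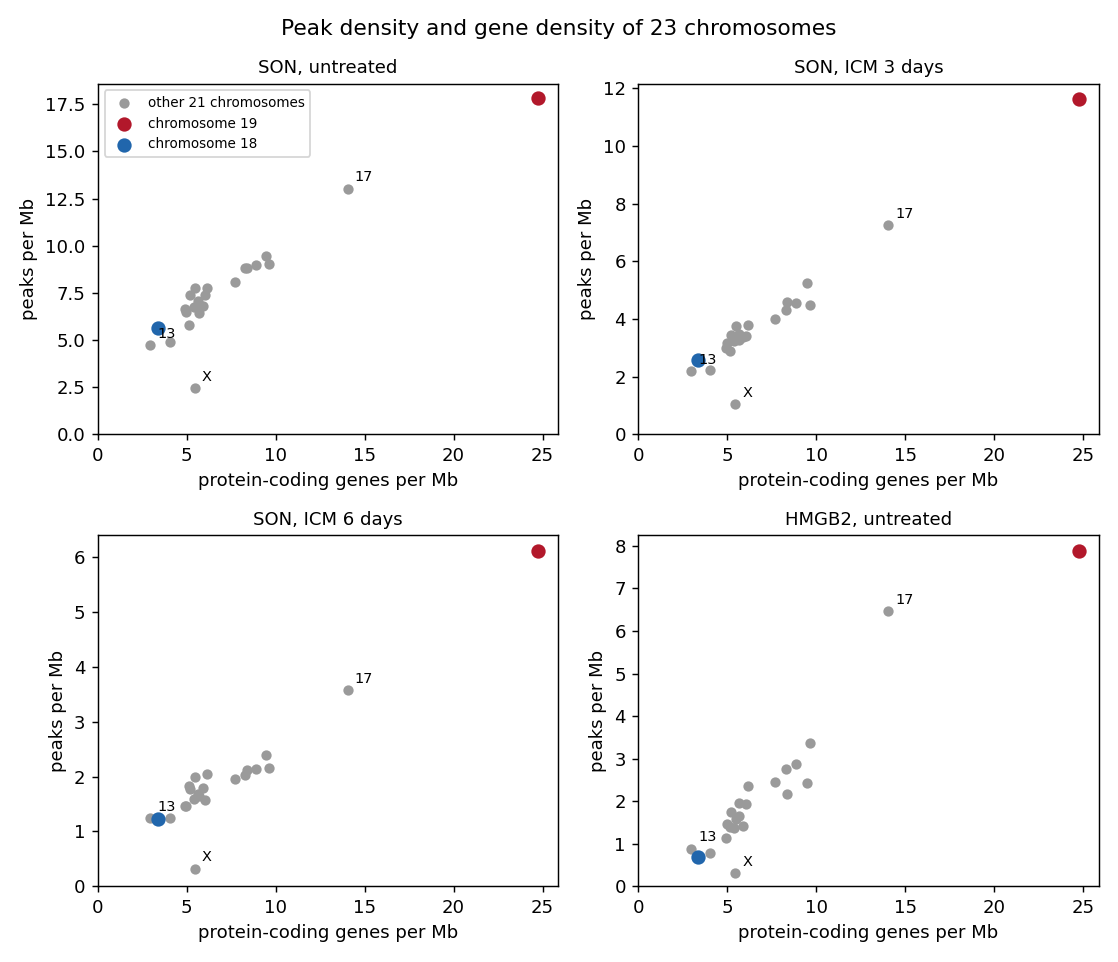
Peaks per Mb (vertical) against protein-coding genes per Mb (horizontal), 1 point per chromosome and 1 panel per list. Chromosome 19 stands at 24.8 genes per Mb and at the top of every panel, and chromosome 18 at 3.36 genes per Mb among the lowest; the X chromosome had the lowest peak density in each list.

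Counted per gene, the order of the chromosomes turned for SON but not for HMGB2. There were 0.720 untreated SON peaks per protein-coding gene on chromosome 19 and 1.67 on chromosome 18, the highest of all chromosomes, a ratio of 0.431 (0.385 to 0.482). The values were 0.469 and 0.770 at 3 days, with a ratio of 0.609 (0.521 to 0.715), and 0.247 and 0.367 at 6 days, with a ratio of 0.673 (0.537 to 0.849). HMGB2 had 0.318 peaks per gene on chromosome 19 and 0.207 on chromosome 18, a ratio of 1.53 (1.16 to 2.06). Chromosome 19 therefore had 5.37 times the genes of chromosome 18 but fewer than 5.37 times the SON peaks. The direction for SON depended on which genes and peaks were counted. With all genes of the table in place of protein-coding genes the ratio was 1.34 at 3 days and 1.48 at 6 days, and with only peaks at or below a global IDR of 0.05 it was 1.05 and 1.79. The IDR, or irreproducible discovery rate, is a measure of how poorly a peak agrees in rank between replicates.

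Bins of 1 Mb were compared next within classes of gene number. Where genes were sparse, chromosome 19 did not have more peaks than chromosome 18. In bins with 6 to 15 genes, untreated SON peaks averaged 6.38 per bin over 8 bins of chromosome 19, 9.84 over 19 bins of chromosome 18, and 10.3 over 874 bins of the other 21 chromosomes. The ratio of 19 to 18 in this class was 0.648 (0.466 to 0.887) for untreated SON, 0.739 (0.465 to 1.14) at 3 days, 0.375 (0.130 to 0.894) at 6 days and 0.170 (0.0196 to 0.673) for HMGB2. The last value rests on 2 HMGB2 peaks on chromosome 19 and 28 on chromosome 18. No bin of chromosome 18 had more than 15 genes, so in the denser classes chromosome 19 could be set only against the other 21 chromosomes. In bins with 16 to 30 genes untreated SON peaks averaged 19.5 on chromosome 19 and 15.4 elsewhere, and in bins with over 30 genes 26.1 and 22.98. At 6 days the averages in these classes were 6.36 against 3.81 and 10.0 against 6.82. Gene number was not equal within a class. With 16 to 30 genes, 25 bins of chromosome 19 held 616 genes and 220 bins elsewhere held 4619. Per gene, untreated SON peaks in these classes were 0.791 against 0.732 and 0.651 against 0.591. At 6 days they were 0.258 against 0.182 and 0.25 against 0.176.

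**Figure D2:**
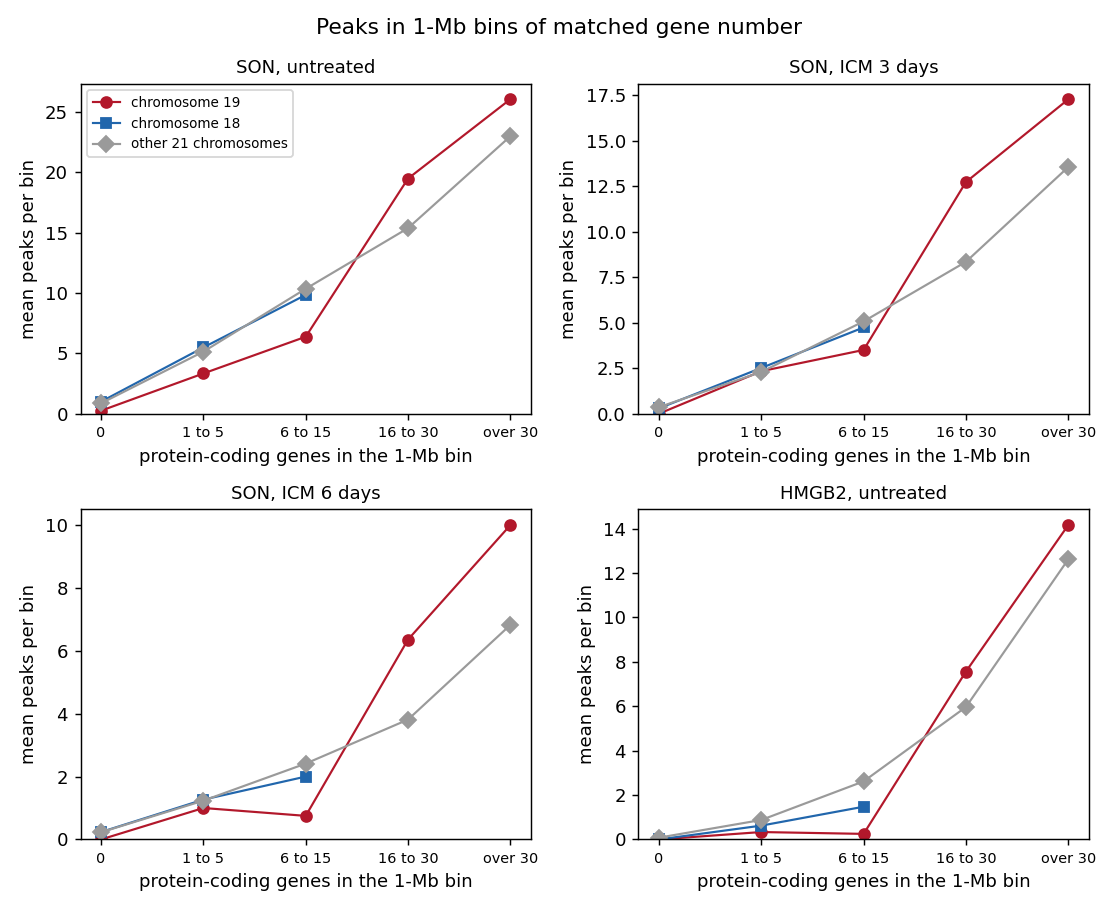
Mean number of peaks per 1-Mb bin (vertical) by the number of protein-coding genes in the bin (horizontal, 5 classes), for chromosome 19, chromosome 18 and the other 21 chromosomes, 1 panel per list. In bins with 6 to 15 genes chromosome 19 lies below chromosome 18 in every panel, and above 15 genes it lies above the other 21 chromosomes.

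The fullest bins show the contrast within each chromosome. On chromosome 19 the bin chr19:1000001-2000000 held 45 SON peaks in the untreated list, 30 and 13 in the 3-day and 6-day lists, and 33 HMGB2 peaks. Its 38 genes include STK11, a tumour suppressor kinase gene, the polymerase subunit gene POLR2E and the ribosomal protein gene RPS15. Of the 38, 32 had an untreated SON peak within 5 kb, where the share over all genes was 57.1%. The bin was chosen for its number of untreated SON peaks, so a high share follows from the choice. The bin chr19:45000001-46000000, with ERCC1 and ERCC2 of nucleotide excision repair and the splicing gene SNRPD2, held 38, 25, 15 and 38 peaks, as many for HMGB2 as for untreated SON. The fullest bin of chromosome 18, chr18:3000001-4000000, held 28, 13, 3 and 1 peaks and only 5 genes, among them the myosin light chain genes MYL12A and MYL12B. The bin chr18:9000001-10000000, with RAB31, held 24, 11, 7 and 4 peaks and 8 genes. Bins without an untreated SON peak made up 8.47% of chromosome 19 and 25.9% of chromosome 18. Bins without an HMGB2 peak made up 27.1% and 67.9%. These counts include bins without a gene, 4 on chromosome 19 and 17 on chromosome 18. How well reads map to each bin was not examined.

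Relative to the untreated list, the treated SON lists were longer on chromosome 19 than on 18. The 3-day list held 0.652 peaks per untreated peak on chromosome 19 (0.591 to 0.719) and 0.461 on chromosome 18 (0.389 to 0.545), against 0.496 over all chromosomes. At 6 days the values were 0.343 (0.303 to 0.387) and 0.220 (0.175 to 0.273), against 0.247. Chromosome 19 ranked 1 of 23 at both times, and chromosome 18 ranked 20 and 21. The ratio of 19 to 18 was 1.41 (1.17 to 1.71) at 3 days and 1.56 (1.22 to 2.003) at 6 days. With lists of equal length it was 1.05 and 0.723, so the direction at 6 days was the opposite. List length, unknown depth and treatment cannot be told apart here.

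Peaks were also stronger on chromosome 19 than on 18 in the SON lists. Strength is the authors' own −log10 p of a peak, which for SON is the lower value of 2 replicates. It depends on depth, so chromosomes are compared within a list, and values of different lists only stand side by side. The median in untreated cells was 12.9 on chromosome 19 and 9.80 on chromosome 18, against 9.90 in the whole list. At 3 days the medians were 12.2 and 8.55 (whole list 9.06), and at 6 days 10.4 and 8.02 (whole list 8.50). The differences of the medians on the log2 scale were 0.40, 0.51 and 0.38. Chromosome 19 had the highest median of 23 chromosomes in each SON list, while chromosome 18 ranked 12, 20 and 23. For HMGB2 the medians were 10.0 and 9.42, a log2 difference of 0.09, and by fold enrichment, another value of the authors, chromosome 19 was the lower with a median of 4.78 against 5.21.

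In the SON lists chromosome 19 had the larger share of the strongest peaks. With each list ranked by strength and split into 5 equal classes, the top class of untreated SON peaks took 37.2% (34.2 to 40.2%) of the peaks of chromosome 19 and 12.9% (9.91 to 16.3%) of those of chromosome 18. At 3 days the shares were 40.8% and 10.6%, at 6 days 41.6% and 17.2%, and for HMGB2 24.3% and 17.9% with intervals that overlap. The weakest class took 11.6% of the untreated SON peaks of chromosome 19 and 20.8% of those of chromosome 18, 11.3% and 23.6% at 3 days, and 11.5% and 12.1% at 6 days. The strongest peak of chromosome 18 was exceeded by 26 untreated SON peaks of chromosome 19 (2.49%), 23 at 3 days (3.38%), 45 at 6 days (12.6%) and 9 of HMGB2 (1.95%). An IDR no higher than 0.05 was found for 71.5% of untreated peaks on chromosome 19 and 57.6% on chromosome 18 (background over all peaks 59.7%), for 61.4% and 35.6% at 3 days (background 41.4%), and for 34.9% and 13.1% at 6 days (background 15%). In the untreated list the deposited values of the replicates were identical for 69.6% of the peaks of chromosome 19 and 55.2% of those of chromosome 18, against 56.04% of the whole list. At 3 days this held for 24.4% and 33.7% (whole list 28.9%), and at 6 days for 5.03% and 14.1% (whole list 9.47%). Whether the replicates are independent is not given in the sources used here, which limits what the IDR shares and the lower replicate value can show, most of all in the untreated list.

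**Figure D3:**
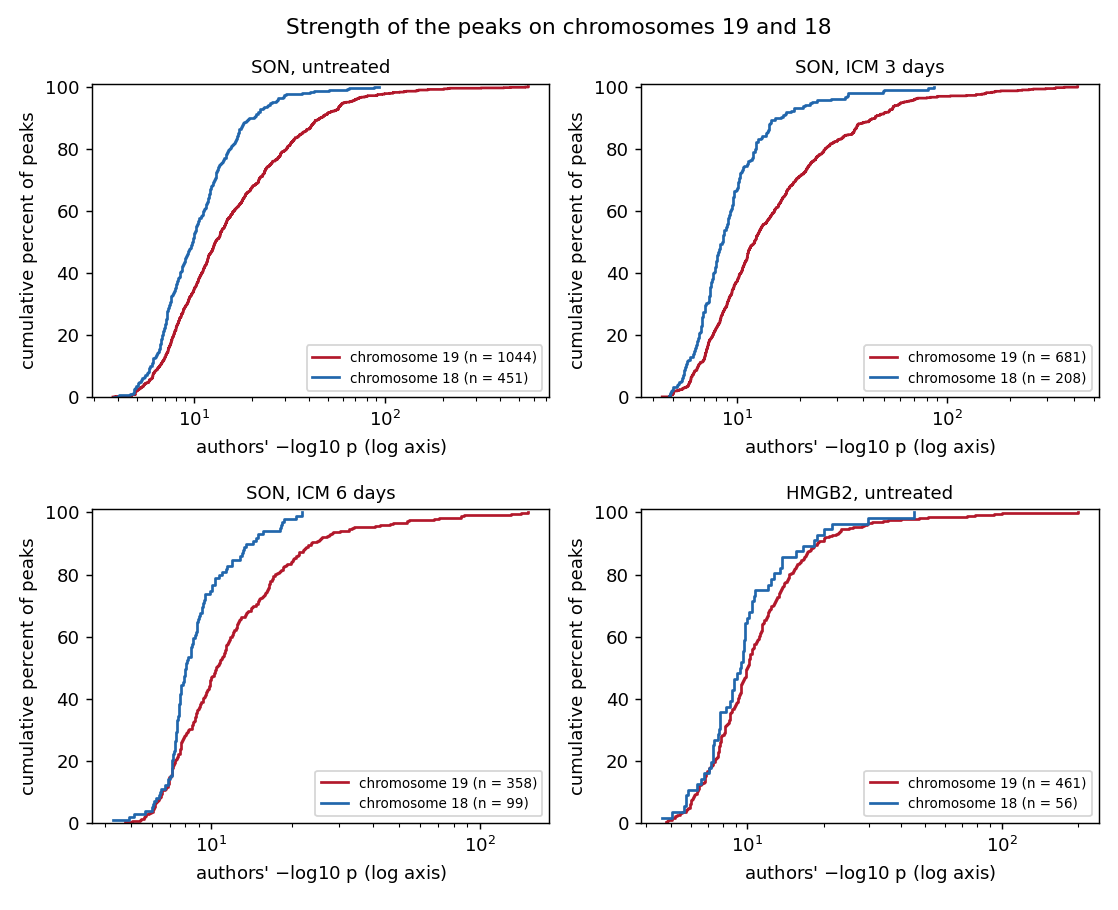
Cumulative percent of peaks (vertical) by the authors' −log10 p (horizontal, log axis) on chromosome 19 and chromosome 18, 1 panel per list, with the number of peaks in each key. In the SON panels the curve of chromosome 19 runs to the right of that of chromosome 18, with medians of 12.9 against 9.80 in untreated cells, and in the HMGB2 panel the curves lie close together.

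The strongest untreated SON peak of chromosome 19, chr19:18224297-18224927, covers the PDE4C window shown above. Its −log10 p was 563.5 for untreated SON, 227.2 for the 3-day and 131.3 for the 6-day list, and 23.02 for HMGB2, and the replicates of the untreated list had 577.2 and 563.5. Next came chr19:55653648-55655187 at the start of U2AF2, which encodes the large subunit of the splicing factor that binds the polypyrimidine tract, with 540.3, 326.4, 152.2 and 8.44. The third, at the start of the ribosomal protein gene RPL28, had 452.7, 246.1, 142.3 and 11.8. These regions also held the 3 strongest 6-day peaks of the chromosome, in another order. At 3 days the strongest peak, at 418.7, lay 6.08 kb from ACSBG2, an acyl-CoA synthetase gene. It was followed by the start of MAP2K7, a kinase gene of the JNK pathway, at 361.0 and the start of TMEM143 at 330.3, and none of these 3 met an HMGB2 peak. HMGB2 was strongest at POLR2E with 198.9, then at the shared region of PAF1 and MED29 with 100.6, then at that of IRGQ and ZNF576 with 93.0.

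On chromosome 18 the strongest untreated SON peak, chr18:56638354-56639080 at TXNL1, had 92.9 in the untreated, 81.1 in the 3-day and 14.6 in the 6-day list, and met no HMGB2 peak. It was followed by CXXC1, which encodes a protein that binds unmethylated CG, with 87.1, 33.8 and 20.7, and by CTDP1, a phosphatase gene of the polymerase II tail, with 65.1, 24.0 and 15.6. MBD1, a neighbour of CXXC1 that encodes a methyl-CG binding protein, had the strongest 3-day peak, with 63.2 in untreated cells and 86.9 at 3 days. TXNL1 came next. At 6 days a peak 18.4 kb from CABLES1 led with 21.8, ahead of CXXC1 with 20.7 and NAPG with 18.7. HMGB2 was strongest at the shared start of PSMG2 and CEP76 with 45.3, then 0.313 kb from IMPA2 with 29.7, and in ELP2 with 21.6. No peak of chromosome 18 reached the 3 strongest of chromosome 19 in the same list.

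Spacing between neighbours followed density, and was most unlike for HMGB2. The median gap between untreated SON peaks was 26.6 kb (24.1 to 28.5) on chromosome 19 and 54.4 kb (44.7 to 62.2) on chromosome 18. It was 40.8 and 142.0 kb at 3 days, 61.3 and 408.4 kb at 6 days, and 22.3 and 263.7 kb for HMGB2. The gap on chromosome 18 was thus 2.05 (1.57 to 2.58), 3.48 (2.37 to 4.74), 6.66 (2.79 to 9.21) and 11.8 (6.99 to 47.95) times that on chromosome 19. With lists of equal length the SON ratios were 5.55, 7.95 and 6.66, so the order over the SON lists was not kept. A median gap depends on density, so it was also divided by the median expected for random positions at the same density. For untreated SON this gave 0.683 on chromosome 19 and 0.441 on chromosome 18. It gave 0.685 and 0.531 at 3 days, and 0.541 and 0.727 at 6 days. For HMGB2 the chromosomes were alike, with 0.253 and 0.265. On chromosome 19 the HMGB2 list, with fewer peaks than the untreated SON list, had the shorter median gap, and 37.0% (32.5 to 41.5%) of HMGB2 neighbours lay within 10 kb of each other, against 19.1% (16.7 to 21.6%) of untreated SON neighbours. On chromosome 18 the shares within 10 kb were 5.45% (1.14 to 15.1%) for HMGB2, from 3 of 55 gaps, and 16.4% (13.1 to 20.2%) for untreated SON. Shares within 10 kb also depend on density and were not adjusted for it. Gaps of more than 1 Mb covered 13.03% of chromosome 19 and 42.7% of chromosome 18 in the untreated SON list, 27.5% and 70.5% at 6 days, and 44.5% and 84.4% in the HMGB2 list.

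SON peaks of chromosome 19 lay at promoters much more often than those of chromosome 18. A peak was counted at a promoter when it met the 250 bases before an annotated start. This was so for 532 of 1044 untreated SON peaks on chromosome 19, 51.0% (47.9 to 54.0%), and for 83 of 451 on chromosome 18, 18.4% (14.9 to 22.3%), where all peaks of the 22 chromosomes with promoter windows gave 27%. At 3 days the shares were 60.1% and 29.3% (background 37.9%), and at 6 days 64.2% and 18.2% (background 29.9%). For HMGB2 they were 36.2% (31.8 to 40.8%) and 30.4% (18.8 to 44.1%), with a background of 33.5%. Within classes of equal strength the odds of lying at a promoter were 3.61 (2.73 to 4.79), 2.54 (1.78 to 3.64) and 6.67 (3.79 to 11.7) times higher on chromosome 19 for SON, and 1.28 (0.700 to 2.35) for HMGB2. The median distance from an untreated SON peak to a start was 0.481 kb on chromosome 19 and 47.4 kb on chromosome 18. Chromosome 19 had 1548 promoter windows and the longer chromosome 18 had 365, so a peak at any position meets a promoter more often on chromosome 19. Shares, odds and distances were not adjusted for this, and its part in them was not tested. Peaks at promoters were the stronger on each chromosome, with an untreated median of 17.9 on chromosome 19 and 12.95 on chromosome 18. In genes but away from promoters the medians were 10.7 and 9.48, and outside both 9.76 and 8.601.

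Seen from the genes, the untreated SON shares had overlapping intervals. Within the gene or 5 kb of it, untreated SON peaks were found for 922 of 1451 genes of chromosome 19, 63.5% (61.0 to 66.0%), and for 162 of 270 of chromosome 18, 60.0% (53.9 to 65.9%), against 57.1% of all genes. The shares were 50.7% and 42.6% at 3 days (background 41%), 31.9% and 20.7% at 6 days (background 21.5%), and 27.2% and 15.6% for HMGB2 (background 23.3%). The untreated difference (19 minus 18) was 3.54 points (-2.65 to 9.97), but 15.4 with lists of equal length, 10.4 with the stronger 50% of each list, 0.180 (-6.23 to 6.82) without genes whose symbol starts with ZNF and -1.94 with a window of 1 kb. Gene length differed between the chromosomes, and within classes of equal gene length the odds were 1.77 (1.29 to 2.42) times higher on chromosome 19 in untreated cells, 1.84 (1.35 to 2.51) at 3 days, 2.46 (1.69 to 3.58) at 6 days and 2.33 (1.55 to 3.52) for HMGB2. Neighbouring genes can share a peak within 5 kb and are not independent, and these odds were not run with the 1-kb window. Peaks at the promoter were present for 48.4% and 38.5% of genes in untreated cells (background 40.3%), 38.0% and 28.6% at 3 days (background 28.8%), 22.03% and 8.12% at 6 days (background 11.6%), and 14.9% and 7.26% for HMGB2 (background 13.6%). A peak in all 4 lists was present for 255 genes of chromosome 19 (17.6%) and 20 of chromosome 18 (7.41%), against 10.6% of all genes, and no peak in any list for 34.4% and 37.8%, against 40.3%.

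Promoters with a peak were rich in CG on both chromosomes, and the sequences of GP6 and HMSD stand for the poorer class. With 1 promoter per gene at its outermost start, the median CG count in 250 bases was 21 for promoters of chromosome 19 with an untreated SON peak and 10 for those with no peak in any list. On chromosome 18 the medians were 25 and 14. Over all promoters the median was 16 on chromosome 19 and 20.5 on chromosome 18. At over 20 CG, 65.1% (60.3 to 69.6%) of promoters on chromosome 19 and 52.1% (42.7 to 61.5%) on chromosome 18 had an untreated SON peak, against 51.8% over 22 chromosomes. At 6 days this class had 34.7% (30.1 to 39.5%) and 11.97% (6.70 to 19.3%), against 14.95%. At 0 to 5 CG the untreated shares were 1.46% (3 of 205) and 0% (0 of 46, with an upper limit of 7.71%). Within classes of equal CG count the odds of a peak were 1.79 (1.29 to 2.49) times higher on chromosome 19 in untreated cells, 1.80 (1.28 to 2.53) at 3 days, 4.16 (2.44 to 7.09) at 6 days and 3.42 (1.85 to 6.34) for HMGB2.

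**Figure D4:**
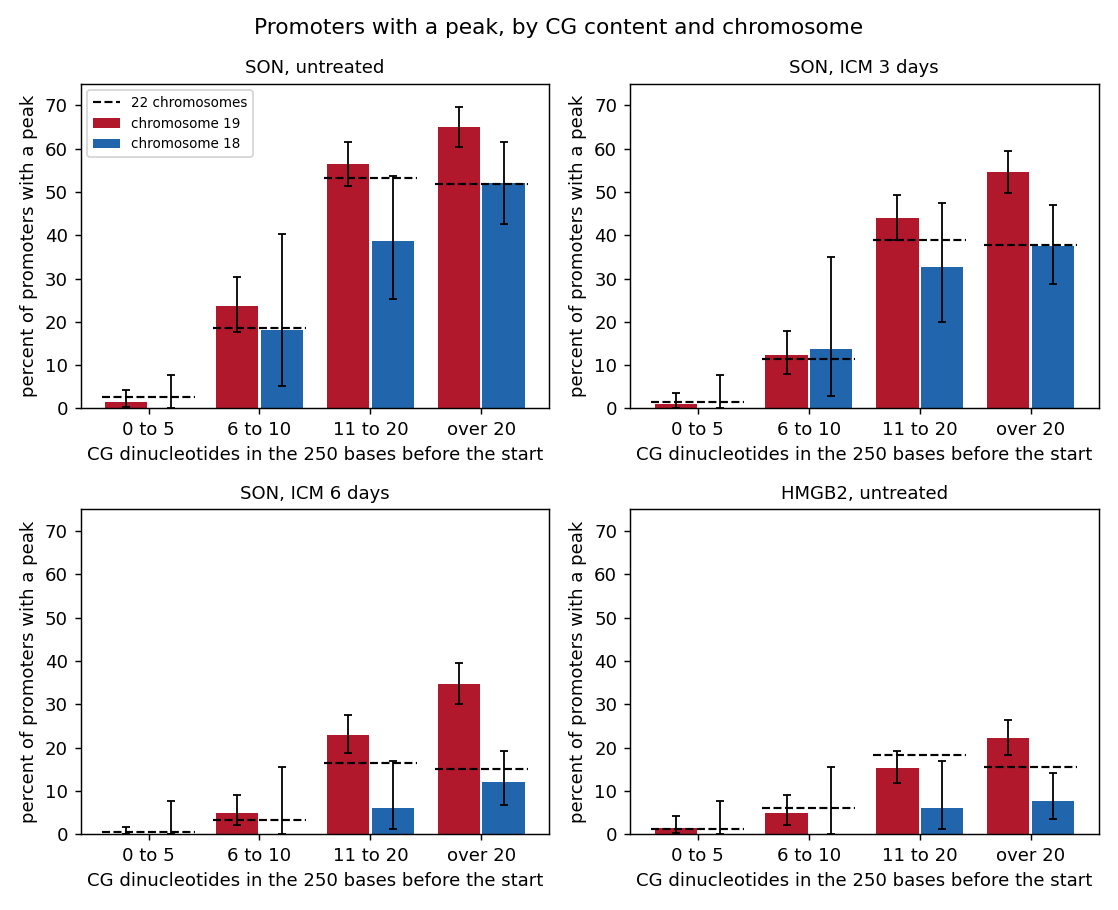
Percent of promoters with a peak (vertical) by the number of CG dinucleotides in the 250 bases before the start (horizontal, 4 classes) on chromosome 19 and chromosome 18, with 95% exact binomial intervals, and a dashed line for 22 chromosomes. Shares are near 0 at 0 to 5 CG, and in the class over 20 CG chromosome 19 lies above chromosome 18 in each panel, with 34.7% against 11.97% at 6 days.

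Motif content was described on the same promoters. GGGCGG was present in 74.2% of the promoters of chromosome 19 with an untreated SON peak and in 54.1% of those with no peak, and on chromosome 18 in 76.2% and 46.9%, against 55.8% of all 15811 promoters. CCGGAAG was present in 25.6% and 6.01% on chromosome 19 and in 19.05% and 4.83% on chromosome 18 (all promoters 11.7%). GCATGCG, seen above at IRGQ, was present in 9.98% and 2.37% on chromosome 19 and in 11.9% and 0.690% on chromosome 18 (all promoters 4.53%). In promoters with a peak in all 3 SON lists its share was 17.5% on chromosome 19 and 17.6% (of 17 promoters) on chromosome 18. CCAAT was present in 51.6% and 29.3% on chromosome 19 and in 32.1% and 21.4% on chromosome 18 (all promoters 34.4%). AGGNGGC differed less, with 40.3% and 37.3% on chromosome 19 and 32.1% and 33.8% on chromosome 18 (all promoters 37.2%). AAGATGG was present in 3.38% and CACGTG in 7.79% of all promoters, and among those with an untreated SON peak in 5.27% and 8.47% on chromosome 19 and in 8.33% and 9.52% on chromosome 18. Motif content and CG content were not separated here.

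Lists shared more peaks on chromosome 19 than on 18, counting an overlap of at least 1 bp. Of the untreated SON peaks, 62.5% (59.5 to 65.5%) on chromosome 19 and 41.7% (37.1 to 46.4%) on chromosome 18 met a 3-day peak (background 45.4%), and 33.9% (31.0 to 36.9%) and 19.3% (15.7 to 23.2%) met a 6-day peak (background 21.9%). Both comparisons use the same untreated list. Chromosome 19 ranked 1 of 23 in each, and chromosome 18 ranked 20. Of the 3-day peaks, 96.2% and 90.4% met an untreated peak (background 91.6%), and 50.8% and 38.0% a 6-day peak (background 40.1%). Of the 6-day peaks, 98.9% (97.2 to 99.7%) and 87.9% (79.8 to 93.6%) met an untreated peak (background 88.9%), and 96.9% and 79.8% a 3-day peak (background 80.9%). Among peaks at or below an IDR of 0.05 the difference for 6-day peaks in the untreated list was -0.800 points (-4.39 to 22.02), from 34.9% of the 358 peaks of chromosome 19 and only 13 peaks of chromosome 18.

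Strong peaks recurred more often, so the sharing was also compared within the 5 strength classes. In the top class, 96.9% of untreated peaks on chromosome 19 and 96.6% on chromosome 18 met a 3-day peak, and 72.7% and 56.9% a 6-day peak. In the bottom class the shares were 17.4% and 11.7% at 3 days. The odds of being met within classes were 1.37 (1.04 to 1.81) times higher on chromosome 19 for 3 days and 0.984 (0.714 to 1.36) for 6 days. For 3-day peaks met at 6 days the odds pooled over classes were 0.592 (0.401 to 0.874), in the opposite direction of the plain shares. The classes were not alike. In the top class 88.8% on chromosome 19 and 81.8% on chromosome 18 were met. In each weaker class chromosome 18 was the higher, by the most in the class below the top, with 33.8% and 62.5%. For 6-day peaks the odds were 7.69 (2.34 to 25.3) for the untreated list and 5.67 (2.53 to 12.7) for the 3-day list. Only 4 of the 358 6-day peaks of chromosome 19 met no untreated peak, against 12 of 99 on chromosome 18, and the strongest of these reached 8.05.

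Untreated SON peaks met HMGB2 peaks more often on chromosome 19 than on chromosome 18. Of the untreated SON peaks, 27.7% (24.99 to 30.5%) on chromosome 19 met an HMGB2 peak and 7.32% (5.09 to 10.1%) on chromosome 18, the lowest of 23 chromosomes (background 16.5%). Chromosome 17 had 27.4%, so the share was not particular to chromosome 19, and chromosome 13 had 12.04%. Within strength classes the odds were 3.62 (2.45 to 5.34) times higher on chromosome 19. At promoters the shares were 31.2% and 12.05%, and elsewhere 24.0% and 6.25%. Of the 6-day SON peaks, 42.5% and 13.1% met an HMGB2 peak (background 25.4%). The HMGB2 list holds 461 peaks on chromosome 19 and 56 on chromosome 18, and seen from HMGB2 the chromosomes were closer. Of its peaks, 65.1% (60.5 to 69.4%) and 58.9% (45.0 to 71.9%) met an untreated SON peak (background 62.3%), 52.7% and 33.9% a 3-day peak (background 44.1%), and 34.3% (29.9 to 38.8%) and 23.2% (12.98 to 36.4%) a 6-day peak (background 23.5%). HMGB2 peaks at promoters met untreated SON in 151 of 167 cases on chromosome 19 and in 9 of 17 on chromosome 18. Away from promoters the order was the opposite, with overlapping intervals. There 149 of 294 (50.7%, 44.8 to 56.5%) met untreated SON on chromosome 19 and 24 of 39 (61.5%, 44.6 to 76.6%) on chromosome 18.

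**Figure D5:**
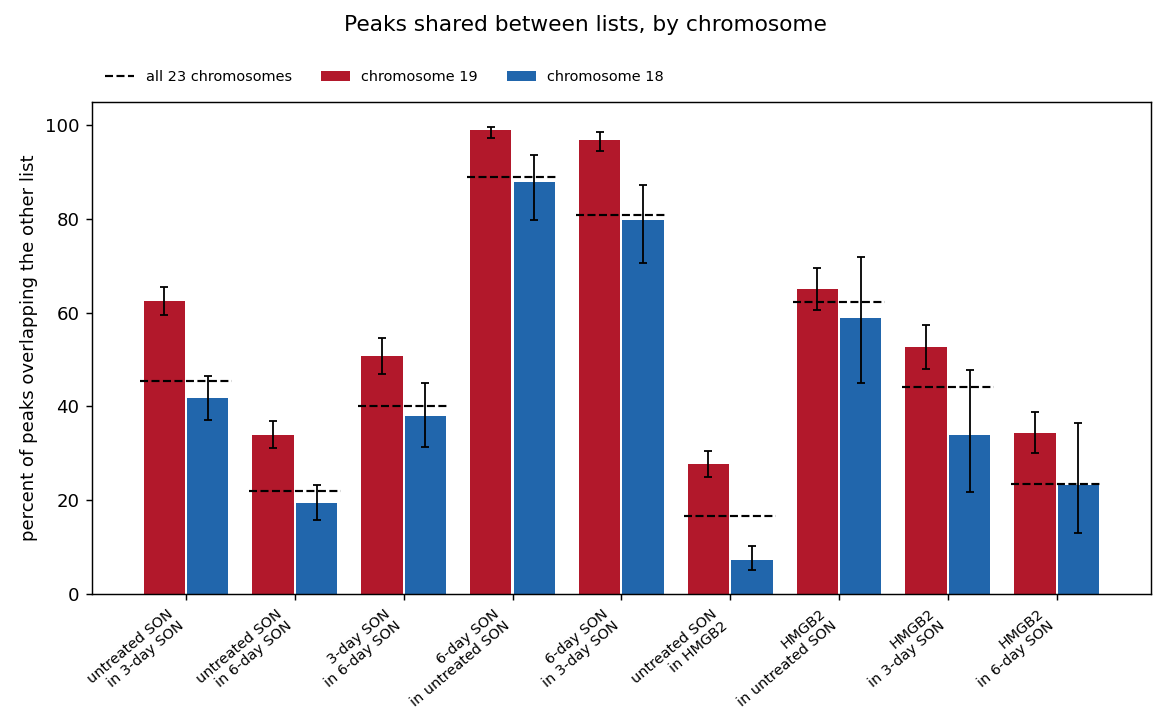
Percent of the peaks of a list that overlap a peak of another list (vertical), for 9 ordered pairs of lists (horizontal), on chromosome 19 and chromosome 18, with 95% exact binomial intervals, and a dashed line for all 23 chromosomes. Chromosome 19 is the higher in each pair, by the most relative to its level for untreated SON peaks in the HMGB2 list, with 27.7% against 7.32%.

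All 4 lists met at 149 of the 1044 untreated SON peaks of chromosome 19, 14.3% (12.2 to 16.5%), and at 13 of the 451 of chromosome 18, 2.88% (1.54 to 4.88%), against 5.86% over all chromosomes. On chromosome 19, 107 of these 149 regions lay at a promoter, and on chromosome 18 3 of 13 did, against 56.3% over the 22 chromosomes with promoter windows. By mean strength percentile the first on chromosome 19 was chr19:43595893-43596711, at the shared start of IRGQ and ZNF576, with 202.9 in the untreated list, 295.3 and 70.4 in the 3-day and 6-day lists, and 93.0 for HMGB2. PDE4C was next. On chromosome 18 the first was chr18:58362151-58362604 within NEDD4L, a ubiquitin ligase gene that acts on sodium channels, with 22.1, 16.6, 18.4 and 9.13. PHLPP1 was the first at a promoter, with 51.0, 33.7, 11.9 and 7.70, and its HMGB2 peak lies outside the window shown.

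Genes were then taken in 5 lists by role, separate for each chromosome, and a gene counted as met when a peak lay in it or within 5 kb. These lists were drawn up by function with earlier results of these data known, and neighbours can share a peak. Of the 102 listed genes of chromosome 19, 92.2% were met by untreated SON, 83.3% and 57.8% by the 3-day and 6-day lists, and 59.8% by HMGB2. Of the 66 of chromosome 18, 78.8%, 57.6%, 25.8% and 18.2% were met. The backgrounds over all genes in the same order are the 57.1%, 41%, 21.5% and 23.3% given above. Over all genes of chromosome 19 the shares were 63.5%, 50.7%, 31.9% and 27.2%. For chromosome 18 they were 60.0%, 42.6%, 20.7% and 15.6%.

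RNA processing genes of chromosome 19 were met almost throughout. Of 25 genes, 25 had an untreated SON peak, 24 a 3-day peak, 21 a 6-day peak and 13 an HMGB2 peak. In the untreated list the strongest after U2AF2 was SNRNP70, the U1 snRNP protein gene, with 149.8 in the untreated list, 137.5 and 53.5 in the 3-day and 6-day lists, and 7.74 for HMGB2. SAFB and SAFB2, scaffold attachment factor genes with a shared start and a shared peak, had 144.6, 217.6, 54.7 and 12.01. PTBP1, a splicing repressor gene, had 61.4, 45.7, 20.7 and 12.6. The weakest coverage was at CLASRP, with an untreated peak alone at 10.3. Of the 7 RNA processing genes of chromosome 18, 7 had an untreated peak, 4 a 3-day peak, 1 a 6-day peak and 0 an HMGB2 peak. THOC1 of the mRNA export complex THO, the 1 gene met at 6 days, had 12.95, 5.998 and 7.61, and SNRPD1, a core snRNP protein gene, had 16.3 and 8.16.

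A splicing gene of each chromosome is shown next, for 2 promoters that both hold many GC boxes and differ in the strength of their peak. They were chosen after values were seen.
U2AF2, chr19:55654785-55655034, plus strand: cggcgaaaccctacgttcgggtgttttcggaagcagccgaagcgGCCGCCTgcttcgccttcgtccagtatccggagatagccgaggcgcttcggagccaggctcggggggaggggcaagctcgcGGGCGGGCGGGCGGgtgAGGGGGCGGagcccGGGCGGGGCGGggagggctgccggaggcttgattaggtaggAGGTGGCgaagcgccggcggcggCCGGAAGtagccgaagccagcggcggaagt
TXNL4A, chr18:80033937-80034186, minus strand: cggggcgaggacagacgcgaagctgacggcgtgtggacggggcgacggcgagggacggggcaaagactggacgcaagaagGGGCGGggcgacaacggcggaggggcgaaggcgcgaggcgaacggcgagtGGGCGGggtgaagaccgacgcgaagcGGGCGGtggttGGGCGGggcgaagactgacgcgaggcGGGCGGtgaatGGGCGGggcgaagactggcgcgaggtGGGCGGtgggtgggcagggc
Capitals mark the same motifs as above. The U2AF2 window held 34 CG, 6 GGGCGG, 1 CCGGAAG and 3 AGGNGGC, and its untreated SON peak had 540.3. The window of TXNL4A, a gene of the U5 snRNP, held 39 CG and 7 GGGCGG. The untreated SON peak there had 3.99, near the lowest value of the list on chromosome 18, 3.81, with no peak in the other lists. Away from this window, in the gene or within 5 kb, TXNL4A had a stronger untreated SON peak, with 13.98.

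Transcription and chromatin genes were met in 23, 22, 13 and 16 of 24 cases on chromosome 19 and in 17, 14, 7 and 4 of 20 on chromosome 18, for untreated SON, 3 days, 6 days and HMGB2. On chromosome 19 CHAF1A, a chromatin assembly factor gene, had 57.2, 24.7, 12.9 and 13.7, and PAF1 of the elongation complex had 52.1, 20.3, 12.4 and 100.6. SMARCA4, the ATPase gene of the SWI/SNF remodeller, had 52.1, 103.6 and 20.3 and no HMGB2 peak. TRIM28, the corepressor gene of KRAB zinc finger proteins, was met in no list. On chromosome 18 the strongest were CXXC1, CTDP1 and MBD1. SMAD4, a TGF-beta signal transducer gene, had 16.9, 28.2 and 6.91, and SALL3 and TSHZ1 were met in no list.

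Cell cycle, repair and survival genes were met in 19, 16, 12 and 12 of 20 cases on chromosome 19 and in 16, 9, 2 and 3 of 19 on chromosome 18. AKT2, a kinase gene of insulin signalling, had 58.7, 67.8, 19.1 and 18.3, and POLD1, the catalytic subunit gene of DNA polymerase delta, had 32.1, 52.6, 21.97 and 10.3. LMNB2, a B-type lamin gene, had 41.1, 36.9 and 21.4. On chromosome 18 RTTN, a centriole gene, had 28.7, 11.9 and 10.1, and ESCO1, a cohesin acetyltransferase gene, had 27.3, 16.9 and 7.45. BCL2, an inhibitor of apoptosis, had an untreated peak alone at 9.90, and HAUS1, PIAS2 and RBBP8 were met in no list.

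Translation genes of chromosome 19 were met in 16, 15, 9 and 11 of 16 cases, and the 2 of chromosome 18, RPL17 and NARS1, in 2, 2, 0 and 0. After RPL28 came RPL36 with 73.6, 55.2, 16.9 and 14.4. RPL17 on chromosome 18 had 25.2 in untreated cells and 10.6 at 3 days.

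Matrix, adhesion and signalling genes were met in 11, 8, 4 and 9 of 17 cases on chromosome 19 and in 10, 9, 7 and 5 of 18 on chromosome 18. The backgrounds over all genes are 57.1%, 41%, 21.5% and 23.3%. The counts of the chromosomes were near each other for untreated SON and at 3 days. At 6 days chromosome 18 was the higher, and for HMGB2 chromosome 19. The genes met by all 4 lists were 4 on chromosome 19, among them ACTN4, an actinin gene, with 90.3, 146.3, 24.7 and 10.1, and 5 on chromosome 18. These 5 were the only listed genes of chromosome 18 in all 4 lists. They were ROCK1, a protein kinase gene, with 29.5, 32.8, 11.3 and 9.64, NEDD4L, the laminin gene LAMA1 with 18.9, 9.72, 4.29 and 5.83, RAB31, and the mechanosensitive channel gene PIEZO2 with 14.96, 7.39, 9.22 and 15.5. On chromosome 19 ICAM1, NOTCH3, GDF15, COMP and MYH14 were met in no list, and on chromosome 18 EMILIN2, MYL12B, TWSG1, APCDD1, DSC2, DSC3, DSG2 and DCC.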

How the data were processed

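Peak lists of 4 samples of IMR90 cells were used, 1 per group, taken from titles and treatment labels. The submitters' processing notes name hg38, bcl2fastq 2.17, Bowtie2, MACS2 and deepTools, with no role or order, so positions were read as hg38. Each SON list has the column layout of the IDR tool on 2 replicates: the authors' −log10 p is the lower replicate value, and the deposited −log10 of the global IDR and the score derived from it were used only within a list. The SON signal and q columns hold a placeholder, so the −log10 p replaced the planned signal as strength. The authors deposited, for HMGB2, a fold enrichment, −log10 p, −log10 q and a score, with a q cutoff of 0.03 in the peak names. Read filters, the control of the peak caller and depth are not given in the sources used here.

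Gene positions were those of RefSeq (GRCh38.p14), with 19970 protein-coding genes on chromosomes 1 to 22 and X, and sequences from a RefSeq promoter table that matched 1185 of 1451 genes of chromosome 19, 234 of 270 of chromosome 18 and 15811 in all. Its windows cover 22 chromosomes. No genome sequence was used here, so peak sequences were not read and promoters of at most 250 bases replaced them. Length is the span from the first to the last gene or peak, with no stretch left out, and how well reads map to each stretch was not examined. Shares have exact Clopper-Pearson intervals, rate ratios exact conditional intervals, and medians intervals from order statistics. Odds ratios are Mantel-Haenszel estimates over 5 classes of strength or gene length, or 4 classes of CG count, leaving out classes that hold no information. These functions were tested on simulated data. Peaks were named if among the 3 strongest of a list on either chromosome or the 2 best regions in all 4 lists, and bins if among the 2 fullest of a chromosome. A gene that this rule names on chromosome 18 is not reported here. The members, gene lists and rules were chosen with earlier results of these data known. The promoters of GP6, HMSD, U2AF2 and TXNL4A were added to the rule after values were seen. Alternatives were the stronger 50% of each list, lists of equal length, merging of peaks within 1 kb, other denominators, gene sets, windows, overlaps and measures of strength, and, chosen after seeing the data, a global IDR of at most 0.05. Computations ran in Python 3.11.15 with scipy 1.17.1, statsmodels 0.14.6, pandas 2.3.3, numpy 2.4.6 and matplotlib 3.10.9.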

Additional observations from a re-analysis of the deposited data

How the results depend on the processing

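Of 113 alternatives, 65 left a value within its spread, 39 moved it and 9 reversed its direction. The setting of equal length leaves the 6-day list as it is. Its values that use the 6-day list alone could therefore only stay the same, and they are counted among the 65. The order of the chromosomes was the same for density and spacing in each alternative run, and for strength in each but HMGB2 by fold enrichment, where the log2 difference was -0.13 (reversed). The cause of the changes was not tested, beyond the shorter lists that 3 of the settings build in. No paired analysis was possible because each group holds 1 list and no value comes from a test. Of the results, only SON strength has a value per replicate, since the peaks themselves are joint. Without replicate 1 or without replicate 2 the log2 difference in strength was 0.38 to 0.42 in untreated cells, 0.51 to 0.70 at 3 days and 0.36 to 0.46 at 6 days, an alternative chosen after seeing the data, as was HMGB2 fold enrichment. Depth is unknown.

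With lists of equal length, the ratio of peaks per Mb (19 over 18) was 6.85 for untreated SON and 7.17 at 3 days, peaks per gene 0.930 and 0.974, the spacing ratio (18 over 19) 5.55 and 7.95, later over untreated number 1.05 at 3 days and 0.723 at 6 days (reversed), genes with a peak 15.4 and 16.8 points higher on chromosome 19, and the sharing difference 20.3 points for HMGB2 in untreated SON, 39.2 for 6-day SON in untreated SON and 27.2 for untreated SON in HMGB2.

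With the stronger 50% of each list, peaks per Mb were 4.23 for untreated SON, 7.06 at 3 days and 7.99 at 6 days, peaks per gene 0.575, 0.959 and 1.085 (the last reversed), spacing 3.04, 8.41 and 9.64, genes with a peak 10.4 points in untreated cells and 16.1 at 3 days, and the sharing difference of untreated SON 27.6 points at 3 days, 19.3 at 6 days and 15.5 for HMGB2.

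With a global IDR of at most 0.05, chosen after seeing the data, peaks per Mb were 3.93, 7.74 and 13.2, peaks per gene 0.534, 1.05 and 1.79 (the later 2 reversed), later over untreated number 1.97 and 3.35, genes with a peak at 3 days 16.1 points, and the sharing difference of 6-day SON in untreated SON -0.800 points (reversed).

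Using bins with a gene as length, peaks per Mb were 2.69 for untreated SON and 3.81 at 3 days. Counting all genes of the table, peaks per gene were 0.949, 1.34 and 1.48 for the SON lists (the later 2 reversed) and 3.38 for HMGB2. A 1-kb window gave -1.94 points for genes with an untreated SON peak (reversed). By peak width the log2 difference was 0.25 in untreated cells and 0.17 at 6 days.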

Other observations

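Zinc finger genes, those whose symbol starts with ZNF, were set apart from the other genes of chromosome 19 by their pattern over the lists. Of the 250 ZNF genes, 80.8% (75.4 to 85.5%) had an untreated SON peak in the gene or within 5 kb, against 60.0% (57.1 to 62.7%) of the other 1201 genes. At 3 days the shares were 56.8% (50.4 to 63.0%) and 49.4% (46.5 to 52.2%). At 6 days the order was the opposite, with 24.0% (18.8 to 29.8%) against 33.6% (30.9 to 36.3%). HMGB2 peaks were the least frequent, at 10.8% (7.24 to 15.3%) of ZNF genes and 30.6% (28.0 to 33.3%) of the others. Over all genes of the 23 chromosomes the shares were 57.1%, 41%, 21.5% and 23.3% in the same order. At 6 days the ZNF genes were thus near the share of all genes, and the other genes of chromosome 19 lay above it. The 6-day list held 5481 peaks against 22216 in the untreated list, and the part of list length was not tested.

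At promoters the untreated shares were 77.2% of ZNF genes and 41.8% of the others, and at 6 days 17.8% and 22.98%. Over all genes with a promoter window the shares were 40.3% in untreated cells and 11.6% at 6 days. Among genes with a peak, the median −log10 p was 14.2 for ZNF genes and 22.4 for the others in untreated cells, and 8.84 and 11.7 at 6 days. Neighbouring ZNF genes lie in clusters and are not independent, and no test was made. Chromosome 18 has only 9 ZNF genes, of which 6 had an untreated SON peak, 6 a 3-day peak, 3 a 6-day peak and 3 an HMGB2 peak.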
